A study of Mus musculus with 6 samples.

Results

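The 34 genes described here encode soluble enzymes of the lysosome, their cofactors, proteins of the lysosomal membrane and the TFEB family of transcription factors. They were taken from a list of symbols, and all 34 were found among the 28773 genes in the tables. Of these, 33 had a mean of at least 1 FPKM over the 6 samples and were tested, out of 12444 such genes. FPKM is the number of fragments scaled by transcript length and by the size of the library, so levels of different genes can be set side by side. Mitf was the member under that limit and is given by its values, and the 33 tested averaged at least 1 FPKM in both groups.

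RNA was sequenced from CD8+ T cells taken with an isolation kit from the spleens of mice on day 35. In both groups the tumor had been treated by microwave ablation (MWA), in which a probe heats the tumor. The 3 MWA+PBS samples then had the PBS vehicle, and the 3 MWA+2DG samples had 2-deoxy-D-glucose (2DG), a glucose analogue that blocks glycolysis, injected repeatedly into the abdomen. All mice of the study were female, and the wild-type mice in its treatment groups were BALB/c or C57BL/6 animals of 6 weeks, while the strain and tumor line behind these samples are unknown from the sources used here. No untreated or unablated mice are among these samples, and nothing in the labels says whether the 3 samples of a group were 3 animals or pools. The p-values therefore measure only the spread between these samples.

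Lysosomes are acidic compartments in which proteases, glycosidases and lipases break down material taken up from outside or delivered by autophagy. TFEB, TFE3 and MITF are related transcription factors that are held in the cytoplasm while the kinase complex mTORC1 is active at the lysosomal surface, and that enter the nucleus on starvation or lysosomal stress to turn on lysosomal and autophagy genes. In the spleen, macrophages are rich in lysosomes, and cytotoxic T cells keep granzymes and perforin in granules related to lysosomes, which carry LAMP1.

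TFEB family proteins bind a short palindrome, the E-box CACGTG, often within longer forms such as TCACGTGA or the 10-base CLEAR element. These letters were searched in the 300 bases from 250 before to 50 after each annotated gene start, on sequences from RefSeq (GRCm38.p6). Each of the 3 motifs is its own reverse complement, so both strands are covered, and each longer motif holds the shorter ones. Promoters were found for 30 members, and Asah1, Ctsh, Ctsb and Npc1 had no entry. The E-box was in a promoter of 10 of the 30 genes (33.3%), against 12.1% of the 8342 tested genes with a promoter and 8.09% of all 27025 genes in the table. TCACGTGA was in 4 of 30 (13.3%), against 2.42% and 1.13%. An exact match to a palindromic 10-base form of the CLEAR element was in 0 of 30, against 0.899% and 0.37%. Sites that differ from that form by a base were not counted, and the Lamp1, Ctsd, Naglu and Mcoln1 windows below hold such sites. With so rare a match among all tested genes, 0 of 30 does not show that the members lack CLEAR elements. All these counts are matches of letters and not measured binding.

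The windows below hold the E-boxes within 100 bases upstream of the start in 5 genes that span the measured changes, from Lgmn, the member that fell the most, to Mcoln1, the member that rose. Each is printed in the direction of the gene, with the E-boxes in capitals. The Lgmn window is at chr12:102439126-102439151 on the minus strand, the Lamp1 window at chr8:13159090-13159160 on the plus strand, the Ctsd window at chr7:142387910-142387935 on the minus strand, the Naglu window at chr11:101070011-101070036 on the plus strand and the Mcoln1 window at chr8:3500438-3500489 on the plus strand. All lie upstream of the annotated start of the gene.
Lgmn: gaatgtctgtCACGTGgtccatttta
Lamp1: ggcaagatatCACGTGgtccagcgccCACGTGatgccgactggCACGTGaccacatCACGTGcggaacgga
Ctsd: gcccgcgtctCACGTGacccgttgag
Naglu: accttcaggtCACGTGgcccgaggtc
Mcoln1: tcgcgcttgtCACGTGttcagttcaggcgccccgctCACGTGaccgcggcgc
Lamp1 had 4 E-boxes in the 71 bases before its start, the most of any member, and the E-box nearest the start in Mcoln1 and the one shown in Ctsd stood within TCACGTGA.

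**Figure D1:**
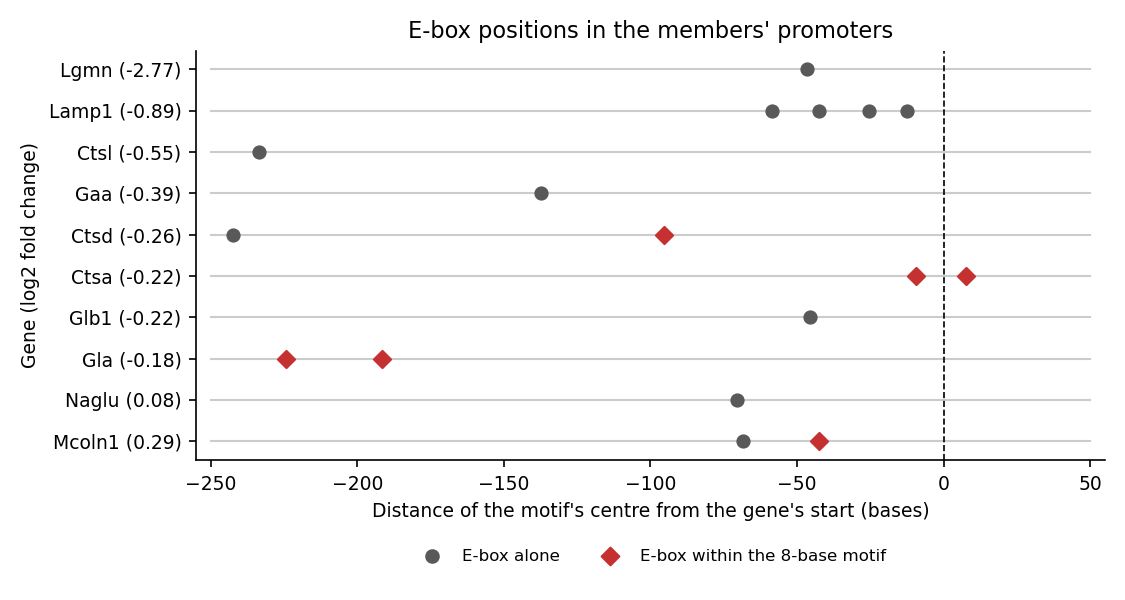
Positions of the 17 E-boxes in the promoters of 10 members, in bases from the centre of the motif to the gene's start (dashed line), with genes ordered by log2 difference, MWA+2DG minus MWA+PBS. Diamonds mark E-boxes within TCACGTGA, and 16 of the 17 lie upstream of the start.

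The question put to these genes was how their transcripts differed when 2DG was given after ablation. Of the 33 members tested, 24 fell in MWA+2DG (72.7%), where 17.1% of all tested genes were called lower by limma at an adjusted p under 0.05. Only Mcoln1 rose (3.03%), where 22.3% of all tested genes were called higher, and 8 members did not pass the test. The members and the lists below were chosen with earlier results of these data known. Their shares beside those of all tested genes are therefore descriptions and not tests of enrichment. All 3 MWA+2DG samples lay below all 3 MWA+PBS samples for 26 of the 33 members, against 21.9% of all tested genes, and above them for Mcoln1 alone, against 30.2%. The log2 difference is the log2 fold change on the scale of log2(FPKM + 1), MWA+2DG minus MWA+PBS. Its median over the members was -0.39, and that of all tested genes was 0.05.

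A log2 difference of -1 or below was reached by 8 members, namely Lgmn, Ctsb, Grn, Ctsz, Asah1, Psap, Hexa and Ctsc, where 3.84% of all tested genes were called lower by as much. A further 5 members fell by between 0.5 and 1 on the log2 scale, and 11 fell by less than 0.5. Scaling the samples to T lineage genes, which were themselves higher in MWA+2DG, lowered every log2 difference by 0.43. With that scaling 32 of the 33 members and 8602 of the 12444 tested genes were called lower and 0 members and 472 genes higher, in place of 24 and 2134 lower and 1 and 2773 higher.

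**Figure D2:**
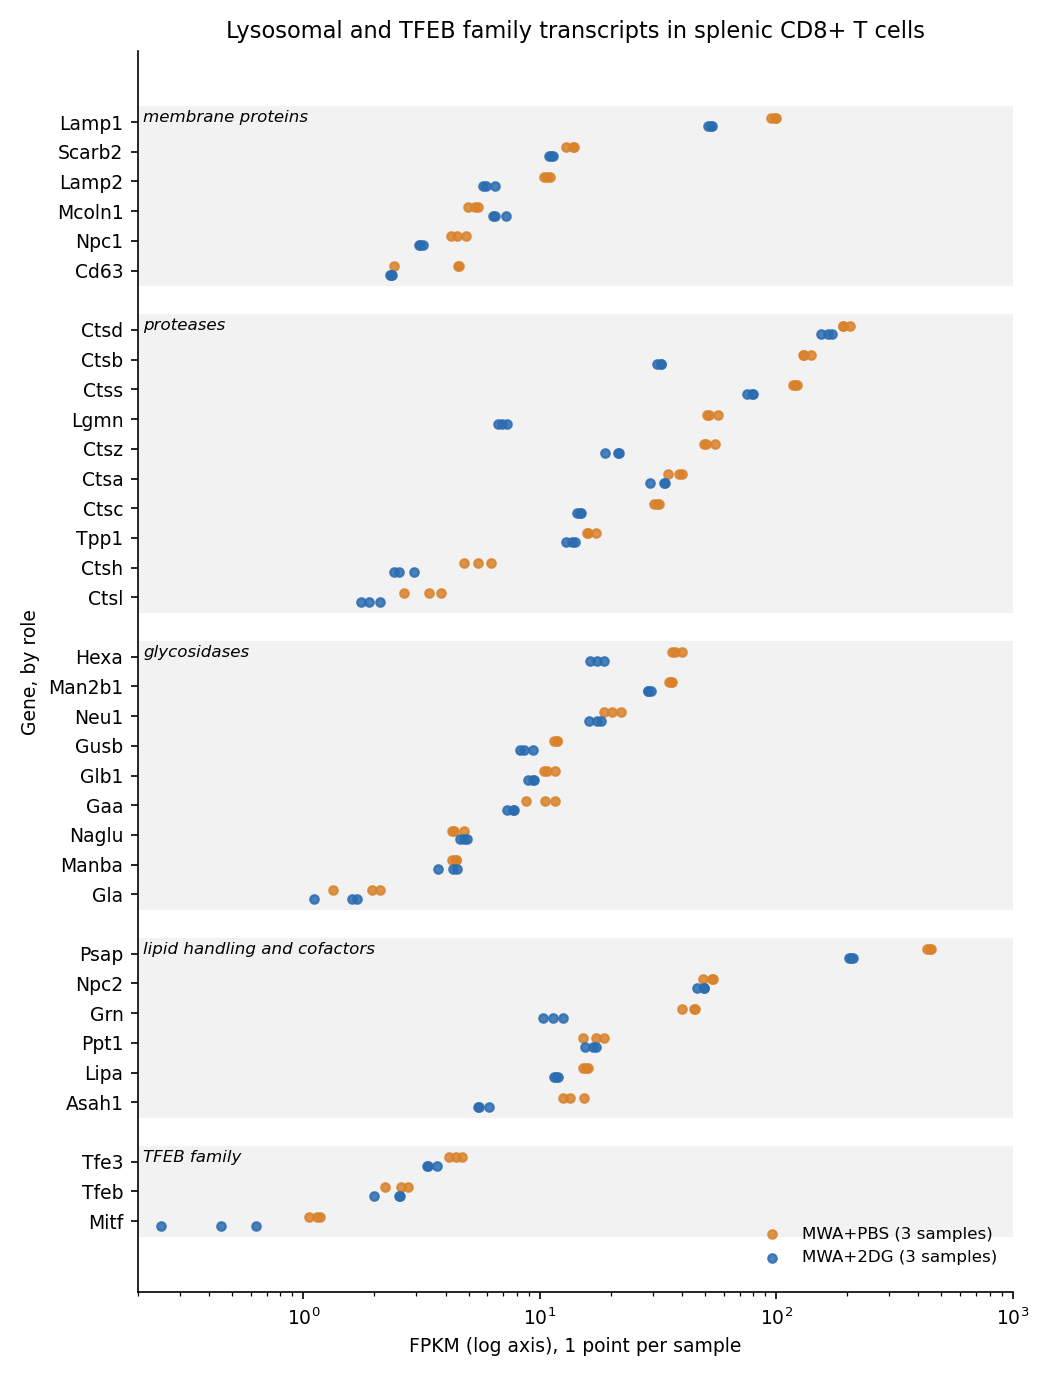
FPKM of the 34 genes in each of the 6 samples on a log axis, grouped by role and ordered within a role by level in MWA+PBS, with 1 point per sample. The MWA+2DG points of Lgmn, Ctsb and Grn stand well to the left of the MWA+PBS points, those of Mcoln1 stand to the right, and those of Tfeb, Manba and Ppt1 overlap.

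Summed over the 34 genes, FPKM in MWA+PBS replicates 1 to 3 was 1562, 1500 and 1495, and in MWA+2DG replicates 4 to 6 it was 874.3, 828.6 and 867.1. The summed level in MWA+2DG was thus 56.4% of that in MWA+PBS, and the groups did not overlap. Psap had the highest level in both groups and made up 35.9% of the difference in the sums. Psap, Ctsb, Lgmn, Lamp1 and Ctss together made up 71.5% of it. Without Psap, the summed level in MWA+2DG was 60.5% of that in MWA+PBS. The order of the genes also shifted, with Ctsb going from rank 3 to rank 7, Grn from 9 to 16 and Lgmn from 6 to 21, while Ctsd was second in both groups.

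Cathepsins and related proteases, which cut proteins inside the lysosome, had the most calls, with 9 of 10 lower (against 17.1% of all tested genes), and all 10 had MWA+2DG samples entirely below the MWA+PBS samples (against 21.9%). Lgmn encodes legumain, which cuts after asparagine and processes other lysosomal proteases and antigens. Its level was 56.8, 51.9 and 51.2 FPKM after MWA+PBS and 6.9, 6.68 and 7.28 FPKM after MWA+2DG. The mean in MWA+2DG was 13.1% ± 0.546 (SE) of that in MWA+PBS, and the log2 difference was -2.77 ± 0.06 (SE, limma adjusted p = 2.08e-07). No member fell further.

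Ctsb encodes cathepsin B, a cysteine protease with broad specificity. It was 139.8, 129.6 and 130.8 FPKM after MWA+PBS and 31.5, 32.5 and 32.7 FPKM after MWA+2DG, a log2 difference of -2.02 ± 0.05 (SE, limma adjusted p = 3.79e-07). In MWA+2DG its mean was 24.1% of that in MWA+PBS. Ctsz, encoding cathepsin Z, a carboxypeptidase, was 55.4, 50.4 and 49.3 FPKM after MWA+PBS against 21.5, 18.8 and 21.7 FPKM after MWA+2DG, with a log2 difference of -1.28 (limma adjusted p = 1.57e-05). Ctsc, encoding cathepsin C, the dipeptidyl peptidase that activates granzymes and neutrophil serine proteases, was 31.3, 32.0 and 30.5 FPKM against 14.4, 14.8 and 15.0 FPKM, a log2 difference of -1.04 (limma adjusted p = 6.28e-06). In all 3 genes the samples of a group lay close together and far from the other group.

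On the scale of log2(FPKM + 1) the other cysteine cathepsins fell by less. As a percent of the MWA+PBS mean, however, Ctsh at 47.9% ± 4.56 was close to Ctsc at 47.0% ± 0.870 (SE). With 0.1 in place of 1 added to FPKM, their log2 differences were -1.03 and -1.08. Ctss, encoding cathepsin S, which trims the invariant chain from MHC class II in antigen-presenting cells, was 120.5, 122.4 and 117.8 FPKM after MWA+PBS and 80.2, 74.98 and 79.1 FPKM after MWA+2DG, a log2 difference of -0.62 (limma adjusted p = 9.10e-05). Ctsh, encoding the aminopeptidase cathepsin H, went from a mean of 5.50 ± 0.705 FPKM to 2.63 ± 0.272 FPKM (SD, n = 3), and Ctsl, encoding cathepsin L, from 3.30 ± 0.582 to 1.92 ± 0.181 FPKM. Their log2 differences were -0.84 and -0.55 (limma adjusted p = 0.000589 and 0.00798). All 6 cysteine cathepsins among the members were thus lower, and their summed level in MWA+2DG was 43.5% of that in MWA+PBS.

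Ctsd, which encodes the aspartic protease cathepsin D, stayed much closer to its level in MWA+PBS than Ctsb did. It was 206.3, 191.1 and 192.5 FPKM after MWA+PBS and 172.2, 155.0 and 166.3 FPKM after MWA+2DG, a log2 difference of -0.26 ± 0.06 (SE, limma adjusted p = 0.0139). Tpp1, encoding the tripeptidyl peptidase lost in a childhood neuronal ceroid lipofuscinosis, had a log2 difference of -0.25 (limma adjusted p = 0.0142). Without MWA+PBS replicate 1 neither passed the limma threshold, with adjusted p = 0.0600 for Ctsd and 0.0592 for Tpp1. Ctsa encodes the carboxypeptidase that protects sialidase and beta-galactosidase, and was 38.8, 39.8 and 34.8 FPKM after MWA+PBS against 33.5, 29.4 and 33.9 FPKM after MWA+2DG. The groups did not overlap, and the log2 difference of -0.22 (95% interval -0.40 to -0.04) missed the limma threshold at adjusted p = 0.0533. Without MWA+PBS replicate 3 it passed, at a limma adjusted p of 0.0337. With all samples kept, Ctsa passed under quantile normalization (limma adjusted p = 0.0300) and median ratio scaling (limma adjusted p = 0.0156). It also passed with scaling to T lineage genes and with scaling that left out mitochondrial, immunoglobulin, haemoglobin and ribosomal protein genes, and missed in the other settings.

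Among the cofactors and proteins of lipid handling, 4 of 6 fell, against 17.1% of all tested genes. Psap encodes prosaposin, the precursor of the saposins that present sphingolipids to their hydrolases. It was 453.9, 436.1 and 446.7 FPKM after MWA+PBS and 207.8, 204.1 and 211.1 FPKM after MWA+2DG, 46.6% of the MWA+PBS mean, and the log2 difference was -1.10 ± 0.05 (SE, limma adjusted p = 5.88e-06). Grn encodes progranulin, a secreted and lysosomal protein that travels with prosaposin. It was 45.2, 40.1 and 45.0 FPKM after MWA+PBS and 11.4, 12.5 and 10.4 FPKM after MWA+2DG, 26.3% of the MWA+PBS mean, and the log2 difference was -1.84 ± 0.08 (SE, limma adjusted p = 4.90e-06). Grn thus had a larger log2 difference than its partner Psap, and their 95% intervals, -2.03 to -1.65 and -1.22 to -0.98, did not overlap.

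Asah1, encoding acid ceramidase, was 13.5, 15.5 and 12.6 FPKM after MWA+PBS and 5.52, 6.12 and 5.47 FPKM after MWA+2DG, with a log2 difference of -1.14 (limma adjusted p = 5.55e-05). Lipa, encoding the acid lipase that hydrolyses cholesteryl esters and triglycerides, had a smaller log2 difference of -0.39 (limma adjusted p = 0.000876). The cholesterol carrier Npc2 had means of 52.2 ± 2.59 and 48.3 ± 1.85 FPKM (SD, n = 3) and a log2 difference of -0.11 (95% interval -0.24 to 0.03), and did not pass the test. The same was true of Ppt1, the palmitoyl protein thioesterase, at means of 17.04 ± 1.69 and 16.5 ± 0.921 FPKM and a log2 difference of -0.04 (95% interval -0.23 to 0.15). The samples of both genes overlapped between the groups.

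The glycosidases, which remove sugars from glycoproteins, glycolipids and glycosaminoglycans, had smaller differences than the proteases, with a median log2 difference of -0.22 against -0.73. Of 9 members 6 fell, against 17.1% of all tested genes, and the same 6 had MWA+2DG samples entirely below the MWA+PBS samples, against 21.9%. Hexa, the alpha subunit of beta-hexosaminidase, stood apart from the rest. It was 40.1, 36.1 and 37.3 FPKM after MWA+PBS and 18.7, 17.5 and 16.4 FPKM after MWA+2DG, a log2 difference of -1.07 ± 0.07 (SE, limma adjusted p = 2.60e-05).

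Gusb, encoding beta-glucuronidase, had a log2 difference of -0.39 (limma adjusted p = 0.00233), and Man2b1, encoding lysosomal alpha-mannosidase, one of -0.30 (limma adjusted p = 0.00213). Both calls held with each sample left out in turn. Gaa, encoding acid alpha-glucosidase, which degrades glycogen, went from 10.3 ± 1.40 to 7.59 ± 0.276 FPKM (SD, n = 3), a log2 difference of -0.39 (limma adjusted p = 0.0151). Its limma adjusted p was 0.0514 with MWA+PBS replicate 1 left out and 0.0517 without MWA+2DG replicate 6. Glb1, encoding acid beta-galactosidase, had a log2 difference of -0.22 (limma adjusted p = 0.0264), and Neu1, encoding the sialidase, also one of -0.22 (limma adjusted p = 0.0444). These calls were fragile, since Glb1 kept its limma call only without MWA+PBS replicate 2 (adjusted p = 0.0217) and Neu1 only without MWA+PBS replicate 3 (adjusted p = 0.0286), and leaving out each of the other samples raised the limma adjusted p to between 0.0537 and 0.0998 for Glb1 and between 0.0624 and 0.126 for Neu1.

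The remaining glycosidases did not pass the test, and their samples overlapped between the groups. Gla, encoding alpha-galactosidase A, was 2.11, 1.95 and 1.33 FPKM after MWA+PBS and 1.60, 1.11 and 1.68 FPKM after MWA+2DG, a log2 difference of -0.18 with a wide 95% interval of -0.52 to 0.16. Manba, encoding beta-mannosidase, had a log2 difference of -0.06 (95% interval -0.24 to 0.12). Naglu, which acts on heparan sulfate, was 4.25, 4.33 and 4.78 FPKM after MWA+PBS and 4.58, 4.79 and 4.92 FPKM after MWA+2DG, a log2 difference of 0.08 (95% interval -0.08 to 0.24) that became -0.35 with scaling to T lineage genes.

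Of the 6 membrane proteins, 4 fell (66.7%, against 17.1% of all tested genes) and 1 rose (16.7%, below the 22.3% of all tested genes). Lamp1, a heavily glycosylated protein of the lysosomal membrane that reaches the surface when cytotoxic granules are released, was 99.5, 95.1 and 99.4 FPKM after MWA+PBS and 53.5, 51.4 and 52.8 FPKM after MWA+2DG. Its log2 difference was -0.89 ± 0.05 (SE, limma adjusted p = 1.19e-05). Lamp2, its relative needed for fusion with autophagosomes, was 10.7, 11 and 10.4 FPKM after MWA+PBS and 5.75, 5.94 and 6.46 FPKM after MWA+2DG, a log2 difference of -0.73 (limma adjusted p = 0.000117). Relative to MWA+PBS, Lamp1 was at 53.6% ± 1.01 and Lamp2 at 56.6% ± 2.20 (SE), and the difference between the pair was not tested.

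Scarb2, the receptor that carries beta-glucocerebrosidase to lysosomes, had a log2 difference of -0.26 (limma adjusted p = 0.00848), and Npc1, which moves cholesterol out of the lysosome, one of -0.41 (limma adjusted p = 0.0038). Npc1 was thus called while Npc2, its soluble partner, was not, and the difference between the pair was not tested. Cd63, a tetraspanin of late endosomes and granules, was 4.53, 4.57 and 2.41 FPKM after MWA+PBS and 2.38, 2.36 and 2.32 FPKM after MWA+2DG. MWA+PBS replicate 3 lay near the MWA+2DG samples, and the log2 difference was -0.49 (95% interval -0.92 to -0.06, limma adjusted p = 0.0683). Without that sample it was -0.73 at a limma adjusted p of 0.000872.

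Mcoln1 encodes TRPML1, the calcium channel of the lysosomal membrane through which calcineurin is activated to release TFEB to the nucleus. It was 5.31, 4.97 and 5.47 FPKM after MWA+PBS and 7.17, 6.36 and 6.47 FPKM after MWA+2DG. The mean in MWA+2DG was 127.0% ± 6.01 (SE) of that in MWA+PBS, with a log2 difference of 0.29 ± 0.07 (SE, limma adjusted p = 0.0131), which turned to -0.14 and was not called with scaling to T lineage genes. Without MWA+2DG replicate 4, the highest sample, the log2 difference was 0.25 and missed the limma threshold at an adjusted p of 0.0521, so 0 members were then called higher.

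**Figure D3:**
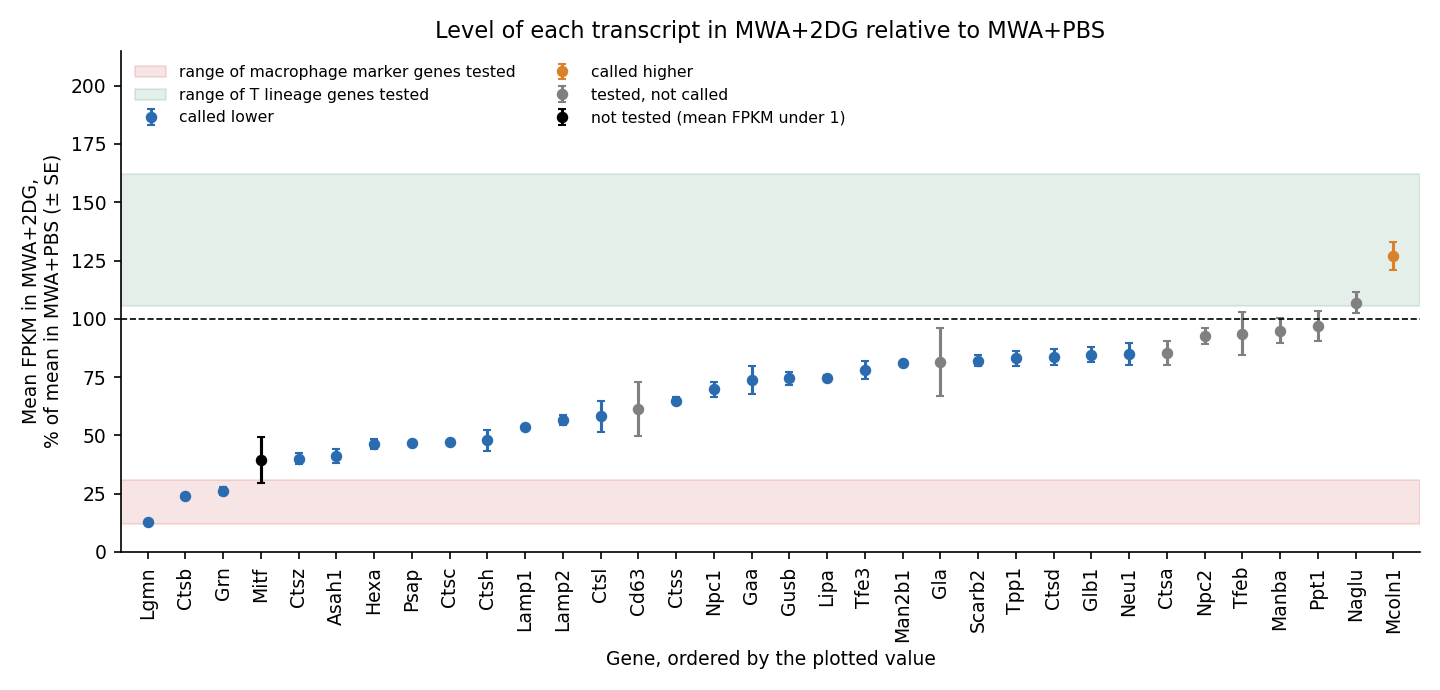
Mean FPKM of each gene in MWA+2DG as a percent of its mean in MWA+PBS, with SE (3 samples a group), ordered by that value. Lgmn at 13.1%, Ctsb at 24.1% and Grn at 26.3% lie in the range of the macrophage markers tested, 12.2 to 31.0%, and Naglu and Mcoln1 lie in the range of the T lineage genes.

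The transcription factors of the TFEB family were at low levels throughout. Tfeb was 2.77, 2.22 and 2.58 FPKM after MWA+PBS and 2.56, 2.00 and 2.53 FPKM after MWA+2DG. The samples overlapped, and the log2 difference was -0.07 (95% interval -0.31 to 0.17). Tfe3 was 4.42, 4.14 and 4.70 FPKM after MWA+PBS and 3.37, 3.32 and 3.68 FPKM after MWA+2DG, a log2 difference of -0.28 (limma adjusted p = 0.0192), with no overlap. That call was lost at limma adjusted p = 0.0602, 0.0641, 0.0645 and 0.0579 without MWA+PBS replicate 1, MWA+PBS replicate 3, MWA+2DG replicate 4 and MWA+2DG replicate 5, respectively. Mitf was 1.06, 1.14 and 1.18 FPKM after MWA+PBS and 0.45, 0.25 and 0.63 FPKM after MWA+2DG, so its samples did not overlap either, and its mean over all samples was too low for the test. The activity of these factors is set largely by where the protein is in the cell, which transcript levels do not measure.

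The promoter matches can be set beside these values. An E-box was in a promoter of 6 of the 20 members with a promoter that fell, of 3 of the 8 that were not called and of Mcoln1. Among its holders the log2 difference ran from -2.77 for Lgmn to 0.29 for Mcoln1, and Grn, Psap, Hexa, Ctsc and Ctsz, all of which fell by more than 1 on the log2 scale, had none in this window.

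Other genes of the lysosome, from a list of 42, were called in both directions. Of 38 tested, 13 were lower (34.2%, against 17.1% of all tested genes) and 8 higher (21.1%, near the 22.3% of all tested genes), and their median log2 difference was -0.02. Of the 37 that averaged at least 1 FPKM in both groups, 12 were lower. Cd68, a glycoprotein of macrophage lysosomes, had the largest decrease among them, with a log2 difference of -2.49 (limma adjusted p = 9.84e-07), followed by the sorting receptor Sort1 at -1.72 and the phospholipase Pla2g15 at -1.69 (limma adjusted p = 5.51e-06 and 6.21e-06). Cathepsins were also among those that rose. Ctsw, a cathepsin of cytotoxic lymphocytes, was 103.4, 112.9 and 94.9 FPKM after MWA+PBS and 165.5, 141.0 and 156.7 FPKM after MWA+2DG, a log2 difference of 0.57 (limma adjusted p = 0.00167). Ctso had a log2 difference of 0.72 (limma adjusted p = 0.000201) and the transporter Mfsd8 one of 0.45 (limma adjusted p = 0.00828). With scaling to T lineage genes these differences were 0.14 for Ctsw, which was no longer called, 0.29 for Ctso, which was, and 0.02 for Mfsd8. Cathepsin genes therefore differed in direction, with the 6 cysteine cathepsins among the members lower and Ctso higher under both scalings. The count of 8 was 5 without MWA+PBS replicate 1, MWA+PBS replicate 3 or MWA+2DG replicate 6 and 4 without MWA+2DG replicate 4, and with scaling to T lineage genes it was 1.

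The V-ATPase, the proton pump that acidifies lysosomes, had 6 of 18 tested subunits called lower (33.3%, against 17.1% of all tested genes) and 0 called higher by limma (against 22.3%), with a median log2 difference of -0.13. At an unadjusted limma p under 0.05, 7 were lower and 1 was higher, and 1 was called higher after adjustment without MWA+PBS replicate 2. With scaling to T lineage genes, where 8602 of the 12444 tested genes were lower, all 18 were lower. Atp6v0a1, Atp6v0c and Atp6v1a fell the most, with log2 differences of -0.63, -0.52 and -0.41 (limma adjusted p = 0.00168, 0.000916 and 0.00216).

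Of 4 cathepsin inhibitors tested, 2 were lower (50.0%, against 17.1% of all tested genes) and 1 was higher (25%, near the 22.3% of all tested genes). Cst3, encoding the secreted inhibitor cystatin C, was 50.1, 52.6 and 49.4 FPKM after MWA+PBS and 22.8, 21.3 and 22.8 FPKM after MWA+2DG, a log2 difference of -1.15 (limma adjusted p = 5.88e-06). Serpina3g, an inhibitor of cysteine proteases in lymphoid and myeloid cells, had a log2 difference of -0.91 (limma adjusted p = 5.00e-05). Cst7, encoding cystatin F, which inhibits cathepsin C in cytotoxic cells, had one of 0.24 (limma adjusted p = 0.0229), which became -0.19 with scaling to T lineage genes, and was not called without MWA+PBS replicate 1, MWA+PBS replicate 3 or MWA+2DG replicate 4, when 0 inhibitors were called higher.

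Regulators of mTORC1 and TFEB had 5 of 23 tested lower and 4 higher, with a median log2 difference of 0.04. These shares, 21.7% and 17.4%, were near those of all tested genes, 17.1% and 22.3%. Of the 5 lower genes 3, Tfec and Fnip2 among them, averaged at least 1 FPKM in MWA+PBS alone, so they entered the test through the group where they were high, and of the 20 genes above that level in both groups 2 were lower. Tfec, the further member of the same family of transcription factors, was 1.94, 2.15 and 1.58 FPKM after MWA+PBS and 0.30, 0.34 and 0.52 FPKM after MWA+2DG, a log2 difference of -1.06 (limma adjusted p = 0.00045). Flcn, encoding folliculin, and Fnip2, encoding a partner of it, help mTORC1 act on TFEB, and had log2 differences of -0.37 and -0.84 (limma adjusted p = 0.00897 and 0.00119). Ppp3cb, a catalytic subunit of calcineurin, rose by 0.35 on the log2 scale, as did Rraga, a Rag GTPase that recruits mTORC1 to the lysosome, and Lamtor3, a part of its anchor, rose by 0.27 (limma adjusted p = 0.01, 0.0234 and 0.0261), while with scaling to T lineage genes these were -0.08, -0.08 and -0.16 and 0 regulators were higher. Leaving out MWA+PBS replicate 1 gave 2 lower of 21 that then passed the filter, leaving out MWA+PBS replicate 2 gave 3 of 21 and leaving out MWA+PBS replicate 3 gave 3 of 22, and the higher count was 2 without MWA+PBS replicate 3 and 1 without MWA+2DG replicate 6.

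Autophagy genes had 4 of 22 tested called lower (18.2%, near the 17.1% of all tested genes) and 0 called higher by limma (against 22.3%), with a median log2 difference of -0.07, and at an unadjusted limma p under 0.05 there were 4 lower and 1 higher. With scaling to T lineage genes 21 of the 22 were lower, as were 8602 of the 12444 tested genes. Gabarapl1, which encodes a ubiquitin-like protein of the autophagosome membrane, stood out at 8.15, 9.44 and 8.96 FPKM after MWA+PBS against 2.20, 2.77 and 1.75 FPKM after MWA+2DG, a log2 difference of -1.61 (limma adjusted p = 5.59e-05). Its relative Map1lc3b had one of -0.41 and the initiating kinase Ulk1 one of -0.21 (limma adjusted p = 0.00228 and 0.0376). The lower count was 2 when any sample other than MWA+PBS replicate 2 was left out, and without that sample limma called 2 autophagy genes higher.

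**Figure D4:**
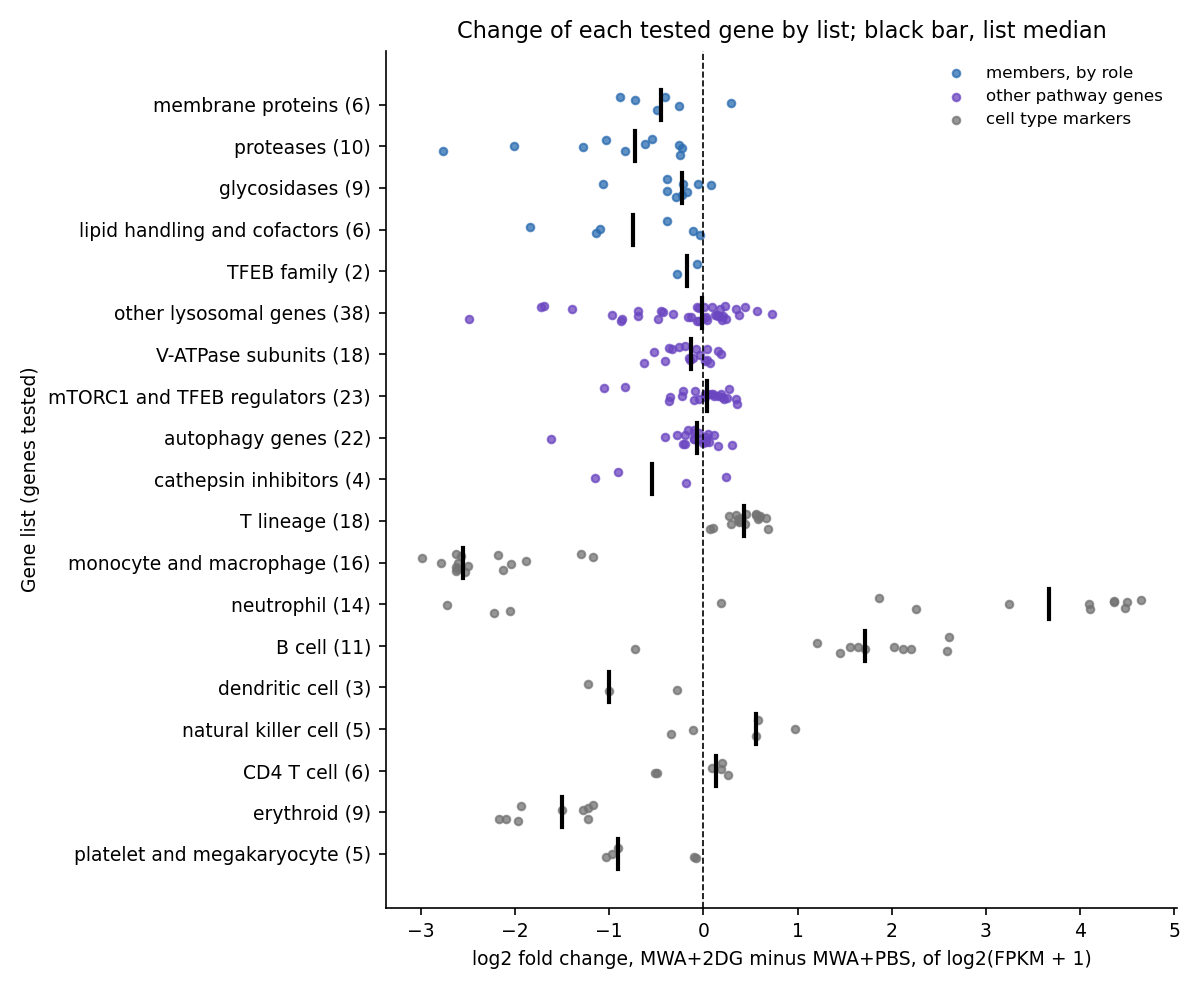
log2 fold change (MWA+2DG minus MWA+PBS, on log2(FPKM + 1)) of each tested gene, by list, with a black bar at each list's median and the number of genes tested in parentheses. The medians are -0.73 for the member proteases, -0.02 for other lysosomal genes, 0.43 for T lineage genes and -2.55 for macrophage markers.

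Lists of cell type markers also differed between the groups, some lower and some higher in MWA+2DG. All 16 tested markers of monocytes and macrophages were lower in MWA+2DG, 15 of which averaged at least 1 FPKM in both groups, with a summed level of 883.3 to 952.2 FPKM after MWA+PBS and 127.8 to 136.8 FPKM after MWA+2DG, and none of the matched markers was at 0. The highest of them, Hmox1, the haem-degrading oxygenase of red pulp macrophages, went from 221.2 ± 9.18 to 26.9 ± 1.54 FPKM (SD, n = 3). The T lineage list had 16 of 18 genes higher, with a summed level of 2096 to 2178 FPKM against 2804 to 2936 FPKM. The CD8 coreceptor genes of the label were at high levels in all samples, with Cd8a at 231.5 ± 6.96 against 366.4 ± 9.48 FPKM and Cd8b1 at 329.4 ± 8.38 against 484.1 ± 27.2 FPKM, and Cd3e, of the T cell receptor complex, was at 97.3 ± 7.98 against 127.0 ± 13.2 FPKM (SD, n = 3). Neutrophil markers summed to between 369.1 and 408.7 FPKM in MWA+PBS, against 1628 to 1809 FPKM, with 10 of 14 higher and 3 lower, and of the 11 that averaged at least 1 FPKM in both groups 7 were higher and 3 lower. B cell markers summed to between 15.96 and 17.4 FPKM, against 65.2 to 69.7 FPKM, with 10 of 11 higher and 1 lower, where 6 of the 10 averaged at least 1 FPKM in MWA+2DG alone.

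Further lists also differed. The erythroid markers were lower for all 9 tested, of which 5 averaged at least 1 FPKM in MWA+PBS alone, those of dendritic cells were lower for all 3, of which 2 averaged at least 1 FPKM in both groups, and those of platelets for 3 of 5. CD4 T cell markers were lower for 2 of 6, and natural killer cell markers had 3 of 5 higher and 1 lower, where 17.1% of all tested genes were lower and 22.3% higher. The 3 higher were Eomes, Klrk1 and Nkg7, with log2 differences of 0.97, 0.58 and 0.56, and the lower was Ncr1 at -0.35, so this list did not move as a whole. What part these other cells had in the levels of the lysosomal genes was not tested, and in RNA from many cells together, fewer cells of a type cannot be told apart from less RNA per cell. Total FPKM was between 291803 and 313257 in each sample, mitochondrial genes held 21.4 to 22.8% of it after MWA+PBS against 19.4 to 20.7% after MWA+2DG, and the labels named no batch, so one shared with the groups cannot be told apart from 2DG.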

How the data were processed

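Libraries were made from poly(A) RNA, marked for strand and given molecular identifiers. The submitters' processing notes name cutadapt 1.9, HISAT2 2.0.4, UMI-tools, StringTie 1.3.4d and the build mm9, the study's methods name fastp and ballgown, and no source used here gives the annotation. The authors deposited FPKM per gene with 2 decimals. FPKM is relative to the total of each library and holds no counts, so the depth behind a value is unknown. Groups came from the labels. Symbols were found for 28689 of 28773 gene IDs in a GENCODE M21 table.

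log2(FPKM + 1) of genes with a mean FPKM of at least 1 was fitted with limma 3.58.1 in R 4.3.3 (lmFit, eBayes with a trend, two-sided, no covariates), and p-values were adjusted by Benjamini-Hochberg over all 12444 genes. Genes were called at an adjusted p under 0.05. Fold changes on this scale understate those of low genes. The fit was tested on simulated data. The members and lists were chosen with earlier results of these data known. Of each pathway list, the 3 largest increases and decreases among called genes without overlap are named. Of marker lists, Cd8a, Cd8b1, Cd3e and, from the highest gene of each list, Hmox1 are named, with the called natural killer cell markers. Stfa1, Clec4f, Klra8 and Ahsp matched no ID. E-box matches were counted per gene over all its annotated starts. Alternatives were another pseudocount, filter, scaling, variance model and call rule, and leaving out each sample.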

Additional observations from a re-analysis of the deposited data

How the results depend on the processing

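No paired analysis was possible because the groups share no replicate number. Leaving out each sample gave 18 to 24 members lower, 0 to 1 higher and a member median of -0.40 to -0.36. For the other lists it gave 11 to 13 lower and 4 to 7 higher other lysosomal genes, 5 to 6 and 0 to 1 V-ATPase subunits, 2 to 6 and 1 to 3 of 21 to 23 mTORC1 and TFEB regulators tested, 2 to 4 and 0 to 2 autophagy genes, and 2 and 0 to 1 cathepsin inhibitors. The fewest members, 18, were lower without MWA+PBS replicate 1. The log2 difference of Ppt1 ran from -0.11 to 0.022, above 0 without MWA+PBS replicate 2 (0.022) or MWA+2DG replicate 5 (0.0012), and that of Tfeb from -0.13 to 0.012, above 0 without MWA+2DG replicate 5.

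Scaling to T lineage genes moved the median of all genes to -0.38 and that of the members to -0.82, turned Mcoln1 to -0.14 and Naglu to -0.35, and called 0 members higher. Where it called 8602 of all 12444 genes lower and 472 higher, it called 31 of 38 other lysosomal genes lower and 1 higher, 18 of 18 V-ATPase subunits lower, 17 of 23 regulators lower and 0 higher, 21 of 22 autophagy genes lower, and 4 of 4 inhibitors lower and 0 higher. The member median was -0.42 with a pseudocount of 0.1 and -0.44 with median ratio scaling, where 4 other lysosomal genes were higher. Without a filter 2 regulators were higher and 2 autophagy genes lower, and at a mean FPKM of at least 5, where fewer genes were tested, 2 regulators were lower. With P under 0.05 and a log2 fold change beyond 0.25, 5 other lysosomal genes were higher, 2 autophagy genes lower and 1 higher, and 0 inhibitors higher. Other causes were not tested. Between 20 and 27 members were lower in the settings other than T lineage scaling that kept all samples, and 23 with the last rule. The 20 was at a mean FPKM of at least 5, where only 24 members were tested.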
